A study of Homo sapiens with 8 samples.

Results

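Fibronectin, tenascin C, thrombospondin 1, SPARC and periostin, together with 4 collagen chains and a collagen cross-linking enzyme, were followed in HaCaT, a human keratinocyte line that was immortalised in culture. The 10 genes were FN1, TNC, THBS1, SPARC, POSTN, COL1A1, COL4A1, COL4A2, COL5A1 and LOXL2, taken by symbol from tables of 24252 genes. Each symbol had 1 row per table. The series compared 4 libraries of Control cells, for which no treatment is labelled, with 4 libraries of cells labelled OGD-R, an abbreviation that usually stands for deprivation of oxygen and glucose and then their restoration. The labels call the sampling stage early and give no duration, and the title places the work in the study of complex regional pain syndrome, a chronic limb pain disorder. Separate cultures are not mentioned for the libraries of a group. A p-value here therefore weighs a difference against the scatter of these libraries alone, and that scatter may be technical. In bulk RNA, fewer cells that express a gene and less RNA per cell cannot be told apart.

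These genes build and tune the matrix under and around keratinocytes. Fibronectin and type IV collagen form sheets and networks that cells grip through integrins, fibrillar collagens of types I and V give tensile strength, and LOXL2 cross-links collagen. Tenascin C, thrombospondin 1, SPARC and periostin are matricellular proteins, secreted proteins that change how cells meet the matrix rather than bearing load. In healing skin, keratinocytes at the wound edge move over a provisional matrix rich in fibronectin and tenascin C.

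Values were read as FPKM, fragment counts scaled by transcript length and by library size, so levels are per length. The 8 libraries summed to between 428984 and 475385 FPKM, and the spacing of the lowest values put 1 fragment on a 2000-base transcript at 0.0200 to 0.0296 FPKM. Across the 11740 genes tested, those with a mean of at least 1 FPKM, log2 values correlated at 0.992 between Control 1 and Control 2 and at 0.991 between Control 3 and Control 4. Controls 1 and 2 correlated with Controls 3 and 4 at only 0.874 to 0.881, but with OGD-R at 0.940 to 0.947. Controls 3 and 4 correlated with OGD-R at 0.879 to 0.887, so they stood apart from all other libraries. All of these are correlations over genes, which are not independent. All 4 Control values are therefore given for each gene, and the log2 differences and calls of the 10 genes are also given with either pair of Controls left out. All 9 keratinocyte markers listed were tested, with 5 higher and 2 lower in OGD-R, beside 10.2% higher and 9.69% lower over all genes tested. KRT5 and KRT14, the basal keratins, were at no less than 1984 and 3556 FPKM in any library. The 9 fibroblast markers summed to between 0.0284 and 0.156 FPKM in Controls and between 0.289 and 0.898 FPKM in OGD-R, and COL1A2 among them was listed at 0 in every library. Melanocyte and endothelial markers summed to no more than 0.699 and 0.463 FPKM in any library, and of 5 leukocyte markers only CD68 reached a mean of 1 FPKM. CD68 was lower in OGD-R, with a mean of 3.41 FPKM against 14.5 FPKM in Controls. The part of any of these in the matrix results was not tested.

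Promoter sequences of the genes whose patterns carry the results are shown first. They come from RefSeq (GRCh38.p14), and a window was used for 8 of the 10 genes. This count does not say what RefSeq holds for the others. FN1 and TNC had like patterns over the libraries, POSTN shared their high values in Controls 3 and 4, and THBS1 had the opposite order among the Controls. Each is the 250 bases before the RefSeq start, on the strand of the gene, with matches to the motifs below in capitals. The windows lie at chr2:215436069-215436318 (FN1, minus strand), chr9:115118158-115118407 (TNC, minus strand), chr13:37598769-37599018 (POSTN, minus strand) and chr15:39580829-39581078 (THBS1, plus strand).
FN1: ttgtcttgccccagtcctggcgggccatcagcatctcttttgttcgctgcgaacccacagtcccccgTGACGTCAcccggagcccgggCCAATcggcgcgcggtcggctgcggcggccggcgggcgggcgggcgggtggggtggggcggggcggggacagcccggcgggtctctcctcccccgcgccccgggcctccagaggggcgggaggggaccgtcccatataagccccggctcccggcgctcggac
TNC: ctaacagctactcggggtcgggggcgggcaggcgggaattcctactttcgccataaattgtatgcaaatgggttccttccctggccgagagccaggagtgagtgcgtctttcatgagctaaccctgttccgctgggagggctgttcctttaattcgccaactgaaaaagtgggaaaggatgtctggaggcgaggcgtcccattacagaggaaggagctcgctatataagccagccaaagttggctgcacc
POSTN: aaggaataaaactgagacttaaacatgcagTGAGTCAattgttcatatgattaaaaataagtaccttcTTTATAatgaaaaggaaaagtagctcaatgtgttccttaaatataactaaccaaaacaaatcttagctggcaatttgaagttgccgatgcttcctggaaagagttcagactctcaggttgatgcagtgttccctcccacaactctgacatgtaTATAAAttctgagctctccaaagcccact
THBS1: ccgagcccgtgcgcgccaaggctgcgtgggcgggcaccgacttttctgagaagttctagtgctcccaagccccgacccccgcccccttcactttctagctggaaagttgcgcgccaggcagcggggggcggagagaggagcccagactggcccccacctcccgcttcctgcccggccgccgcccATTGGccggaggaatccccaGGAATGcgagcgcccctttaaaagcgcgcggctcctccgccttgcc
The search covered both strands for 5 motifs. These were the cyclic AMP response element TGACGTCA, the AP-1 motif TGANTCA, the CCAAT box, the TATA box as TATAAA and the TEAD motif GGAATG. FN1 held TGACGTCA, found in 1.65% of 35116 RefSeq windows of this length, starting 183 bases before the start, and CCAAT, found in 32.0% of windows, starting 162 bases before it. POSTN held TGAGTCA, a form of the AP-1 motif found in 6.57% of windows, starting 220 bases before its start. It also held TATAAA, found in 10.7% of windows, once on each strand. THBS1 held GGAATG, found in 11.9% of windows, starting 46 bases before its start, and CCAAT on the other strand. No motif searched for was matched in the TNC window. The TATA box was searched only as TATAAA, so a window without a match may hold another form. The TNC window holds tatataa near its end, letters that TATAAA does not match. A match is a description of letters and not a sign that a factor bound there.

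The type IV collagen genes COL4A1 and COL4A2 lie head to head on chromosome 13, and their RefSeq starts are separated by 126 bases. This stretch, chr13:110307158-110307283 on the plus strand, the strand of COL4A2, is shown because both genes were lower in OGD-R.
COL4A1 and COL4A2: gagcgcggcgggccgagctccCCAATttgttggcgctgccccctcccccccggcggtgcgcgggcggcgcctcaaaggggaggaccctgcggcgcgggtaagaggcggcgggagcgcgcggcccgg
Its capitals mark CCAAT, the only motif of those searched that it held, and 80.2% of its bases are G or C.

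Of the 10 genes, 5 were lower in OGD-R and 0 were higher: FN1, TNC, THBS1, COL4A1 and COL4A2. With all Controls kept, FN1 showed the largest change, from a Control mean of 850 FPKM to 102 FPKM in OGD-R, and COL4A2 the smallest p. SPARC, POSTN, COL1A1, COL5A1 and LOXL2 did not pass the test. Calls rest on limma with log2(FPKM + 1), a scale that understates the change of low genes, and a Benjamini-Hochberg adjusted p of 0.05 over all 11740 genes. All 10 genes passed the filter of 1 FPKM, a mean taken over all 8 libraries in every fit. POSTN passed it only through Controls 3 and 4. Over all genes tested, 9.69% were called lower and 10.2% higher. The median log2 difference, OGD-R minus Control, was -0.77 over the 10 genes and 0.02 over all genes tested. In 5 of the 10 genes, every OGD-R library lay below every Control library, a separation found in 14.8% of all genes tested. These were the 5 genes called, and since both come from the same values, the separation adds no support to the calls. In 0 of the 10 did OGD-R lie wholly above Control, as it did in 15.2% of all genes tested.

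**Figure D1:**
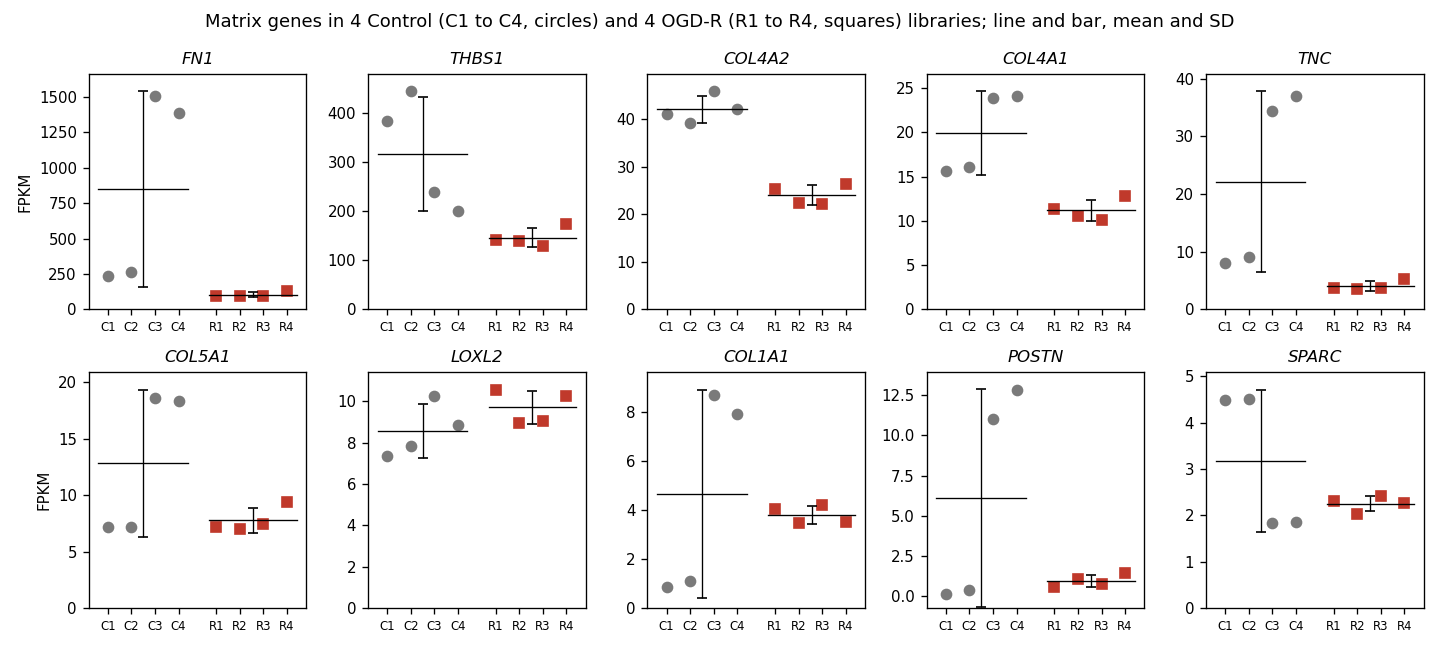
FPKM (vertical axis, linear, a separate range for each gene) of the 10 genes in each library, with C1 to C4 for Control (circles) and R1 to R4 for OGD-R (squares), and with the mean as a line and the SD (n = 4) as a bar. The OGD-R values lie close together in each panel, while the Controls lie in 2 places for most genes, as for FN1 at 239 and 265 against 1511 and 1385 FPKM.

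These counts changed with the Controls that were kept. Without Controls 3 and 4, 6 of the 10 genes were lower and 3 higher, where 32.4% and 22.8% of all genes were called in these directions. Without Controls 1 and 2, 8 were lower and 0 higher, where 28.4% and 39.2% of all genes were called. These fits take their spread from 2 Controls that lie close together and from the 4 OGD-R libraries. FN1, TNC, THBS1, COL4A1 and COL4A2 were lower in OGD-R in both fits, and POSTN and COL1A1 were each called higher without Controls 3 and 4 and lower without Controls 1 and 2. Both Controls 3 and 4 lay above both Controls 1 and 2 in 8 of the 10 genes, an order found in 34.1% of all genes tested, and below them in THBS1 and SPARC, as in 48.1% of all genes tested.

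**Figure D2:**
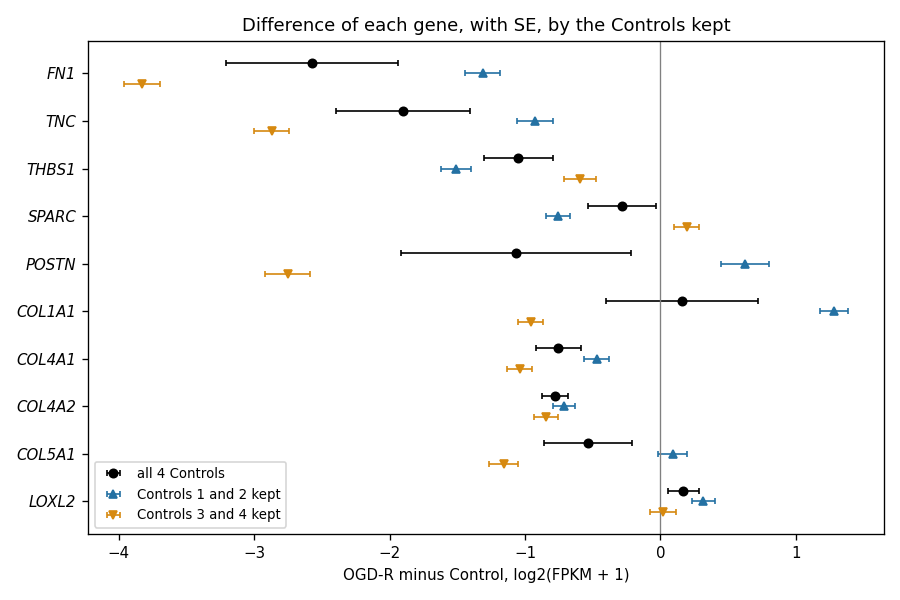
OGD-R minus Control on the log2(FPKM + 1) scale (horizontal axis) with its SE for each gene, from limma with all 4 Controls (circles), with Controls 1 and 2 kept (upward triangles) and with Controls 3 and 4 kept (downward triangles). COL4A2 stays between -0.84 and -0.71 in the 3 fits, whereas COL1A1 moves from 1.28 to -0.96.

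With all 4 Controls, FN1 and TNC were lower in OGD-R by the widest margins, but both size and order depended on the Controls. Without Controls 3 and 4, THBS1 fell most (-1.51), ahead of FN1 (-1.31) and TNC (-0.93). FN1 encodes fibronectin, the glycoprotein of the provisional wound matrix (ENSG00000115414, GRCh38, chromosome 2, 215360440 to 215436172, minus strand). FN1 read 239, 265, 1511 and 1385 FPKM across Controls 1 to 4, against 93.6, 93.1, 92.4 and 129 FPKM across OGD-R 1 to 4. Controls 3 and 4 were far above Controls 1 and 2, all 4 lay above OGD-R, and OGD-R 4 was above the other OGD-R libraries. FN1 fell by 2.57 on the log2 scale (SE 0.635, n = 4 each; limma adjusted p = 0.0253). Its difference was -1.31 without Controls 3 and 4 (limma adjusted p = 3.98e-05) and -3.83 without Controls 1 and 2 (limma adjusted p = 1.73e-08). With all Controls kept, dropping any 1 of the OGD-R libraries ended the call (limma adjusted p from 0.0585 to 0.0724), although the difference then lay between -2.69 and -2.53.

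TNC encodes tenascin C, a hexameric glycoprotein of healing and remodelling tissue (ENSG00000041982, chromosome 9, 115019578 to 115118257, minus strand). TNC read 8.10, 9.01, 34.4 and 37.0 FPKM across Controls 1 to 4, against 3.61, 3.61, 3.73 and 5.29 FPKM across OGD-R 1 to 4. As for FN1, Controls 3 and 4 were the highest libraries, the groups did not overlap, and OGD-R 4 was the highest of its group. TNC fell by 1.90 on the log2 scale (SE 0.495, n = 4 each; limma adjusted p = 0.0303). With Controls 3 and 4 left out its difference was -0.93 (limma adjusted p = 0.000364), and with Controls 1 and 2 left out it was -2.87 (limma adjusted p = 8.65e-08). The call was lost without any single OGD-R library (limma adjusted p from 0.0647 to 0.0836), without Control 3 (0.0646) and without Control 4 (0.0543). The ratio of FN1 to TNC in FPKM was 29.5 in both Control 1 and Control 2, 44.0 and 37.4 in Controls 3 and 4, and between 24.3 and 25.9 in OGD-R, lower in every OGD-R library than in any Control.

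THBS1 was also lower in OGD-R, with the Controls in the reverse order. It encodes thrombospondin 1, a trimeric protein that binds CD36, CD47 and integrins and can activate latent TGF-beta (ENSG00000137801, chromosome 15, 39581079 to 39599466, plus strand). THBS1 read 385, 445, 239 and 201 FPKM across Controls 1 to 4, against 142, 139, 129 and 173 FPKM across OGD-R 1 to 4. Controls 1 and 2 were highest, and OGD-R 4 came nearest to Control 4 without reaching it. THBS1 fell by 1.05 on the log2 scale (SE 0.255, n = 4 each; limma adjusted p = 0.0237), with -1.51 without Controls 3 and 4 and -0.59 without Controls 1 and 2. The call was lost without OGD-R 1 (limma adjusted p = 0.0664), OGD-R 2 (0.0693) or OGD-R 3 (0.0740). THBS1 shares 448 of its 9158 exonic bases with FSIP1 on the opposite strand in GENCODE 29, and no source used here says whether counting used strand. The antisense gene AC037198.2 shares 411 of them, and how reads of either gene enter the THBS1 value is uncertain. Smaller overlaps touch TNC (129 of 9636 exonic bases, with DEC1), SPARC (381 of 4831, with CLMAT3), COL4A2 (81 of 19293, with COL4A2-AS1) and LOXL2 (178 of 5707, with AC090197.1), all on opposite strands and uncertain in the same way. LOXL2 also shares 120 exonic bases with ENTPD4 on the same strand, where counting by strand would not separate the 2 genes.

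SPARC and POSTN, the other matricellular genes, did not pass the test. SPARC encodes osteonectin, a collagen-binding protein (ENSG00000113140, chromosome 5, 151661096 to 151687165, minus strand). SPARC read 4.49, 4.51, 1.84 and 1.85 FPKM across Controls 1 to 4, against 2.31, 2.02, 2.41 and 2.27 FPKM across OGD-R 1 to 4. Every OGD-R library lay below Controls 1 and 2 and above Controls 3 and 4. The log2 difference of SPARC was -0.28 (SE 0.249; limma adjusted p = 0.460), -0.76 without Controls 3 and 4 (limma adjusted p = 9.74e-05) and 0.19 without Controls 1 and 2 (limma adjusted p = 0.0837).

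POSTN encodes periostin, a fasciclin-domain protein known chiefly from fibroblasts (ENSG00000133110, chromosome 13, 37562583 to 37598844, minus strand). POSTN read 0.129, 0.372, 11.04 and 12.9 FPKM across Controls 1 to 4, against 0.552, 1.06, 0.747 and 1.43 FPKM across OGD-R 1 to 4. POSTN was lowest in Controls 1 and 2, higher in Controls 3 and 4 than in any other library, and low in OGD-R. Its log2 difference was -1.06 (SE 0.849; limma adjusted p = 0.413). It was called higher in OGD-R without Controls 3 and 4 (difference 0.62, limma adjusted p = 0.0149) and lower without Controls 1 and 2 (difference -2.75, limma adjusted p = 6.47e-07). The call without Controls 3 and 4 is weak ground, since only those 2 libraries brought POSTN past the filter of 1 FPKM. In the libraries kept there it was near or under that level.

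The type IV collagen genes both fell, and of the 5 genes called their differences moved least with the Controls kept. They encode the alpha 1 and alpha 2 chains of the network collagen of basement membranes, which assemble into a shared trimer. COL4A1 (ENSG00000187498, chromosome 13, 110148963 to 110307233, minus strand) read 15.6, 16.1, 23.9 and 24.1 FPKM across Controls 1 to 4, against 11.4, 10.6, 10.1 and 12.8 FPKM across OGD-R 1 to 4. Its groups did not overlap, and Controls 3 and 4 were highest. COL4A1 fell by 0.75 on the log2 scale (SE 0.167, n = 4 each; limma adjusted p = 0.0167), with -0.47 without Controls 3 and 4 and -1.04 without Controls 1 and 2. The call was lost without OGD-R 2 (limma adjusted p = 0.0557) or OGD-R 3 (0.0586).

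COL4A2 (ENSG00000134871, chromosome 13, 110305812 to 110513209, plus strand) read 41.0, 39.1, 45.9 and 42.1 FPKM across Controls 1 to 4, against 25.3, 22.4, 22.2 and 26.4 FPKM across OGD-R 1 to 4. All 4 Controls lay close together and well above OGD-R. COL4A2 fell by 0.78 on the log2 scale (SE 0.0946, n = 4 each; limma adjusted p = 0.00125). Leaving out any single library kept the call, with adjusted p between 0.00264 and 0.00755. The gene spans of COL4A1 and COL4A2 overlap in GENCODE 29, but their exons share no bases there. The ratio of COL4A2 to COL4A1 in FPKM was 2.63, 2.43, 1.92 and 1.74 across Controls 1 to 4. In OGD-R it ran from 2.07 to 2.23, inside the range of the Controls.

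The fibrillar collagen chains COL1A1 and COL5A1 did not pass the test with all Controls. COL1A1 encodes the alpha 1 chain of type I collagen (ENSG00000108821, chromosome 17, 50183289 to 50201632, minus strand). COL1A1 read 0.860, 1.09, 8.69 and 7.91 FPKM across Controls 1 to 4, against 4.02, 3.45, 4.20 and 3.51 FPKM across OGD-R 1 to 4. Every OGD-R library lay above Controls 1 and 2 and below Controls 3 and 4. The log2 difference of COL1A1 was 0.16 (SE 0.561; limma adjusted p = 0.867), 1.28 without Controls 3 and 4 (limma adjusted p = 1.25e-05) and -0.96 without Controls 1 and 2 (limma adjusted p = 1.64e-05). COL1A2, which encodes the partner chain of type I collagen, was listed at 0 in all 8 libraries.

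COL5A1 encodes the alpha 1 chain of type V collagen, which helps to start type I fibrils (ENSG00000130635, chromosome 9, 134641774 to 134844843, plus strand). COL5A1 read 7.22, 7.15, 18.6 and 18.3 FPKM across Controls 1 to 4, against 7.19, 7.01, 7.49 and 9.39 FPKM across OGD-R 1 to 4. OGD-R lay around Controls 1 and 2 and well below Controls 3 and 4. Its log2 difference was -0.53 (SE 0.325; limma adjusted p = 0.283), 0.09 without Controls 3 and 4 (limma adjusted p = 0.503) and -1.16 without Controls 1 and 2 (limma adjusted p = 1.10e-05).

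LOXL2 encodes a secreted lysyl oxidase that cross-links collagen (ENSG00000134013, chromosome 8, 23297189 to 23425328, minus strand). LOXL2 read 7.33, 7.82, 10.3 and 8.85 FPKM across Controls 1 to 4, against 10.6, 8.97, 9.06 and 10.2 FPKM across OGD-R 1 to 4. The groups overlapped, with Control 3 inside the range of OGD-R. The log2 difference of LOXL2 was 0.17 (SE 0.116; limma adjusted p = 0.342), 0.32 without Controls 3 and 4 (limma adjusted p = 0.0120) and 0.02 without Controls 1 and 2 (limma adjusted p = 0.859).

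By mean level per length in Controls, FN1 (850 ± 692 FPKM, SD, n = 4) and THBS1 (318 ± 116 FPKM) stood above COL4A2 (42.0 ± 2.86 FPKM), TNC (22.1 ± 15.7 FPKM) and COL4A1 (19.9 ± 4.73 FPKM). COL5A1 (12.8 ± 6.51 FPKM), LOXL2 (8.57 ± 1.30 FPKM), POSTN (6.10 ± 6.80 FPKM), COL1A1 (4.64 ± 4.24 FPKM) and SPARC (3.17 ± 1.53 FPKM) followed. Neighbours in this order overlapped between single Control libraries, except that COL4A2 lay wholly under THBS1 and wholly above TNC. In OGD-R the order was led by THBS1 (146 ± 19.2 FPKM, SD, n = 4), with FN1 next at 102 ± 17.8 FPKM, and the lowest OGD-R library of THBS1 was just above the highest of FN1. COL4A2 (24.1 ± 2.11 FPKM), COL4A1 (11.2 ± 1.18 FPKM), LOXL2 (9.71 ± 0.808 FPKM), COL5A1 (7.77 ± 1.10 FPKM) and TNC (4.06 ± 0.822 FPKM) followed. COL1A1 (3.79 ± 0.374 FPKM), SPARC (2.25 ± 0.164 FPKM) and POSTN (0.947 ± 0.382 FPKM) were lowest in OGD-R. There the overlapping neighbours were COL4A1 with LOXL2, LOXL2 with COL5A1, and TNC with COL1A1.

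The 5 genes most like FN1 over the 8 libraries were CHAC1, VEGFA, TRIB3, HAS2 and HS3ST2. Likeness was the root mean square difference of log2(FPKM + 1), each gene centred on its own mean, among 11079 genes with a symbol. It was 0.193 for CHAC1, which encodes a glutathione-degrading enzyme, 0.199 for VEGFA, the angiogenic growth factor, and 0.227 for TRIB3, a pseudokinase. HAS2, which encodes a hyaluronan synthase, and HS3ST2, a heparan sulfate sulfotransferase, followed at 0.228 and 0.230. HAS2 read 2.55, 3.01, 28.4 and 25.7 FPKM across Controls 1 to 4, against 0.305 to 0.521 FPKM in OGD-R. Among the matrix genes TNC came nearest to FN1, at rank 24 (0.397), then POSTN at rank 170 (0.824). SPARC was at rank 6828 (1.68), the farthest of the 10.

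**Figure D3:**
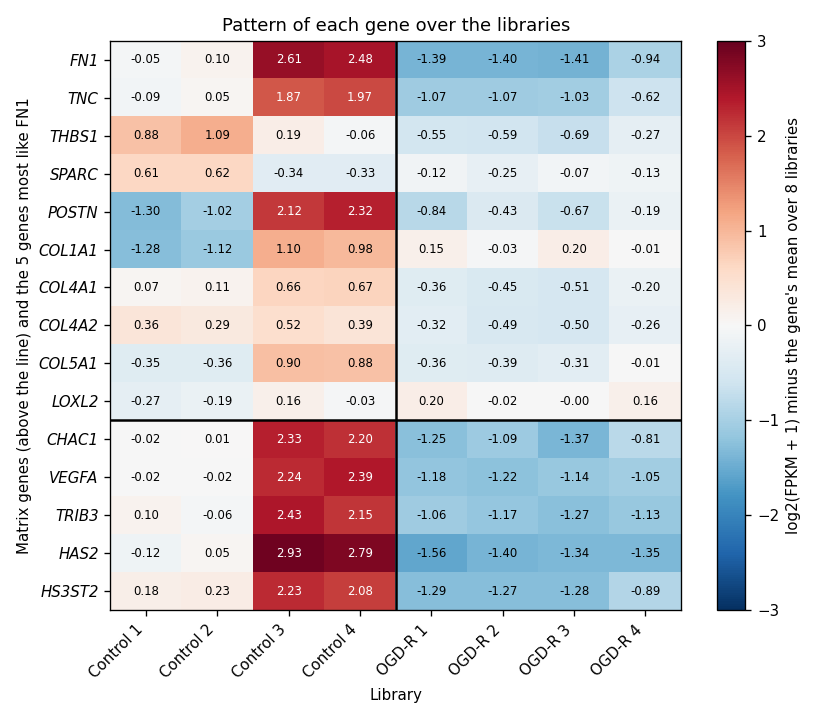
log2(FPKM + 1) of each gene minus its mean over the 8 libraries (colour and printed value), with libraries in columns, the 10 genes above the horizontal line and the 5 genes most like FN1 under it. FN1 is at 2.61 and 2.48 in Controls 3 and 4 and from -1.41 to -0.94 in OGD-R, and THBS1 is highest in Controls 1 and 2.

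The 5 related lists are set beside the 10.2% of all genes tested that were called higher and the 9.69% called lower. The few calls among collagen maturation genes were near these shares, and those among other collagens were too few to compare with them. Of 40 other collagen chains, 10 were tested, with 2 higher and 1 lower in OGD-R and a median log2 difference of 0.03. COL4A5, a further type IV chain, read 8.64, 9.81, 9.38 and 7.84 FPKM across Controls 1 to 4, against 14.6 to 15.4 FPKM in OGD-R, and rose by a log2 difference of 0.69 (SE 0.0877, n = 4 each; limma adjusted p = 0.00142). COL5A3, a type V chain named after its values were seen, rose by 0.75 (limma adjusted p = 0.0130) and stayed at no more than 2.83 FPKM. COL18A1, the basement membrane collagen that yields endostatin, fell by 0.97 (limma adjusted p = 0.00412). COL7A1, of the anchoring fibrils, and COL17A1, of the hemidesmosome, were not called, with differences of 0.53 (limma adjusted p = 0.0927) and -0.29 (0.277). The COL7A1 groups did not overlap, with OGD-R higher. Without Control 2 alone COL7A1 was called higher in OGD-R (difference 0.67, limma adjusted p = 0.0330). It was also called without Controls 1 and 2 (0.88, limma adjusted p = 8.50e-06), but not without Controls 3 and 4 (0.18, 0.0819). COL17A1 was called lower without Controls 3 and 4 (-0.61, limma adjusted p = 2.02e-05), but not called without Controls 1 and 2 (0.03, 0.670).

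Of 29 enzymes and chaperones of collagen maturation, 16 were tested, with 2 higher and 2 lower and a median log2 difference of -0.14. PLOD3, a lysyl hydroxylase, and P3H4, part of a complex that modifies collagen in the endoplasmic reticulum, fell by 0.55 and 0.51 on the log2 scale (limma adjusted p = 0.0127 and 0.00578). SERPINH1, the collagen chaperone HSP47, read 135, 157, 80.0 and 87.9 FPKM across Controls 1 to 4, against 87.2 to 105 FPKM in OGD-R, and was not called (difference -0.21, limma adjusted p = 0.525). With Controls 3 and 4 left out SERPINH1 was called lower (difference -0.61, limma adjusted p = 0.000334). LOX, the founding lysyl oxidase, was at no more than 1.54 FPKM and had a difference of 0.21 (limma adjusted p = 0.241).

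Of 22 other matricellular genes 7 were tested, with 1 lower and 0 higher and a median log2 difference of -0.36. That gene was TGFBI, which encodes a fasciclin-domain protein related to periostin. It read 378, 383, 900 and 847 FPKM across Controls 1 to 4, against 166 to 176 FPKM in OGD-R, and fell by 1.77 (SE 0.304, n = 4 each; limma adjusted p = 0.00584). TGFBI showed the same order of Controls as FN1, with no overlap between the groups.

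Receptors for these matrix proteins gave 3 higher and 4 lower of 14 tested (22 listed, median log2 difference -0.26). ITGB1, the beta 1 subunit that most fibronectin and collagen integrins share, read 195, 215, 205 and 194 FPKM across Controls 1 to 4, against 134 to 150 FPKM in OGD-R, and fell by 0.52 (SE 0.0783, n = 4 each; limma adjusted p = 0.00317). ITGA2, the collagen receptor subunit, fell by 1.27 (limma adjusted p = 0.00193). ITGA5, which pairs with the beta 1 subunit as the main fibronectin receptor, read 6.005, 6.14, 33.1 and 29.2 FPKM across Controls 1 to 4, against 3.61 to 4.24 FPKM in OGD-R. Its groups did not overlap, but it was not called (difference -1.63, limma adjusted p = 0.0713). ITGA5 was called lower without Control 1 (limma adjusted p = 0.0327) or Control 2 (0.0340), and also with either pair of Controls left out.

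Of 31 other basement membrane and matrix glycoprotein genes 19 were tested, with 5 higher and 4 lower and a median log2 difference of 0.17. LAMA3, the alpha chain of laminin 332, read 247, 266, 394 and 451 FPKM across Controls 1 to 4, against 60.4 to 96.1 FPKM in OGD-R, and fell by 2.13 (SE 0.230, n = 4 each; limma adjusted p = 0.000730). LAMB2, the laminin beta 2 chain, had a difference of 1.33 (SE 0.135; limma adjusted p = 0.000544), from 10.9, 11.6, 16.1 and 14.8 FPKM in Controls 1 to 4 to between 31.7 and 37.7 FPKM in OGD-R. Laminin chains were among both the higher and the lower.

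**Figure D4:**
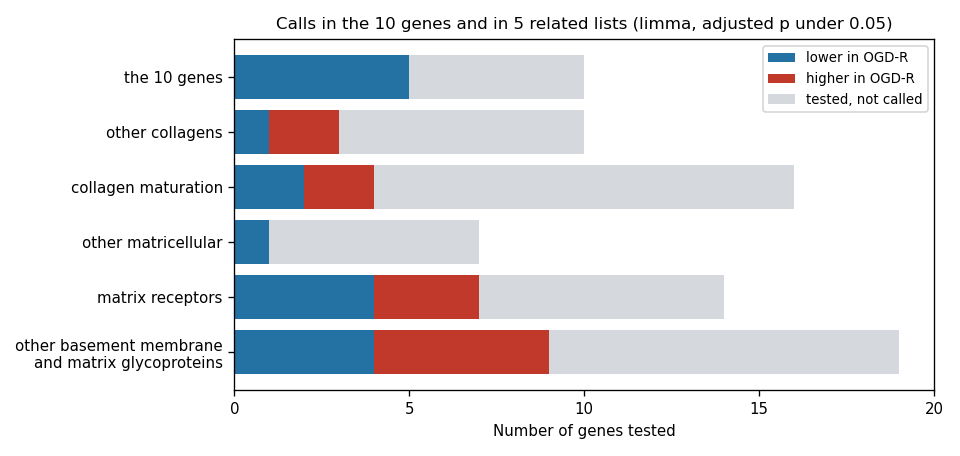
Number of genes tested (horizontal axis) in the 10 genes and in 5 related lists, split into those lower in OGD-R, higher in OGD-R and not called by limma at an adjusted p of 0.05. The 10 genes hold 5 lower and 0 higher, while collagen, maturation, receptor and basement membrane lists hold calls in both directions.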

How the data were processed

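RNA was sequenced from 8 HaCaT libraries, grouped by their titles as 4 Control and 4 OGD-R. Total RNA was the input, and both a NEBNext and a SMARTer kit are named, per the labels' protocols. No source used here names the aligner, counter, build or annotation. For each library the authors deposited a table with gene ID, symbol and a value whose unit is not written. The deposited values were read as FPKM, since the low values of 940 single-exon genes clustered at a constant divided by gene length (11 to 19 values per library within 0.5%), so the unit and the depths implied rest on few values. All 19974 Ensembl IDs were found in GENCODE 29 (GRCh38), and coordinates are from there. Rows of newly assembled genes (4278) were tested but not named.

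Genes whose mean over the 8 libraries reached 1 FPKM were tested as log2(FPKM + 1) with limma 3.58.1 (R 4.3.3, intensity trend), and p-values were adjusted over all genes by Benjamini-Hochberg. The fit was tested on simulated data in which both groups had the spread of the OGD-R libraries. Such data do not hold the split between the Controls, so that test cannot show how the fit behaves with it. No list was tested as a set. The 10 genes, the lists and the settings were chosen with earlier results of these data known, and leaving out pairs of Controls was chosen after seeing the data. Genes named outside the 10 were up to 2 called genes of smallest adjusted p per list, 7 fixed genes and the 5 most like FN1, with exceptions stated. Overlapping genes are uncertain. Alternatives covered the pseudocount (0.1), filters, trend, scaling, a replicate block and libraries left out. Python 3.11.15 and matplotlib 3.10.9 drew the figures.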

Additional observations from a re-analysis of the deposited data

Results flagged for a closer look

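In 20 groups of 4 libraries, 10 genes in Control and in OGD-R, a library far from the other 3 was looked for, and about 1 such group in 20 arises by chance. In most genes the Controls lay as 2 pairs, where 1 Control can hardly stand apart, so the chance figure does not hold for the Control groups. OGD-R 4 stood apart in 2 of the 20 groups. These were for FN1 and TNC, whose patterns were alike, so the 2 are not independent. FN1 was at 129 FPKM in OGD-R 4, with a gap to the next library of 0.968 of the group's range. TNC was at 5.29 FPKM in OGD-R 4, with a gap of 0.925 of the range. OGD-R 4 was the highest OGD-R library in 7 of the 10 genes, as in 3407 of the 11740 genes tested. Without OGD-R 4 the log2 difference was -2.69 for FN1 and -2.01 for TNC (limma adjusted p = 0.0585 and 0.0647).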

How the results depend on the processing

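With all libraries, 1202 genes were higher and 1138 lower, 5 of the 10 genes were lower, and the 5 other lists together held 12 higher and 12 lower of 66 tested. Another pseudocount, no filter, no trend and both scalings kept these counts within 1.5 times, and each of the 10 genes kept its direction and its side of the threshold under these settings. A minimum mean of 5 FPKM left 8303 genes tested, with 689 higher and 916 lower. SPARC, POSTN and COL1A1 were then not tested, and 5 of the 7 genes left of the 10 were lower. Leaving out single libraries gave 711 to 1426 higher and 561 to 1312 lower genes, 1 to 5 lower of the 10, and 7 to 12 higher genes in the lists. It turned the difference of COL1A1, which was not called, to as low as -0.24 (highest 0.55). Leaving out Controls 3 and 4 gave 2673 higher and 3807 lower genes, 3 of the 10 were higher, the lists held 21 higher and 26 lower, and POSTN and COL5A1 turned to 0.62 and 0.091. Leaving out Controls 1 and 2 gave 4603 higher and 3337 lower genes, 8 of the 10 were lower, the lists held 25 higher and 25 lower, and SPARC, COL1A1, SERPINH1 and COL17A1 turned to 0.19, -0.96, 0.18 and 0.0316. The cause of these changes was not tested.

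The titles link Control and OGD-R libraries by number alone. Deviations from the group means correlated at 0.0450, 0.0646, 0.0578 and 0.0585 between libraries of the same number, and not every library correlated best with its own number. Controls 1 and 2 correlated at 0.0450 to 0.109 with OGD-R 1 and 2 and at -0.106 to -0.0276 with OGD-R 3 and 4. Controls 3 and 4 correlated at 0.0530 to 0.113 with OGD-R 3 and 4 and at -0.0871 to -0.0268 with OGD-R 1 and 2. The cause of these signs was not tested. With the replicate block 625 genes were higher and 507 lower, the lists held 5 higher, and of the 10 genes THBS1 was not called (limma adjusted p = 0.0628), nor were COL5A3 (0.0647) and PLOD3 (0.0506). Upper-quartile scaling called COL7A1 higher (limma adjusted p = 0.0281). Tests foreseen for counts were not run, since the values are not counts. Depth limits POSTN in Controls 1 and 2 most, at 0.129 and 0.372 FPKM.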

Other observations

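Per length, FN1 and THBS1 changed rank between libraries. The ratio of FN1 to THBS1 in FPKM was 0.621 and 0.596 in Controls 1 and 2, 6.31 and 6.89 in Controls 3 and 4, and 0.658, 0.670, 0.717 and 0.742 in OGD-R 1 to 4. OGD-R thus lay near Controls 1 and 2 in this ratio, although both genes were lower in OGD-R than in any Control. FN1 took 0.352% and 0.321% of the summed FPKM in Controls 3 and 4, 0.0503% and 0.0576% in Controls 1 and 2, and between 0.0197% and 0.0271% in OGD-R.

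COL5A2, the usual partner chain of COL5A1 and named after its values were seen, was at no more than 0.128 FPKM in any library.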
